A study of Homo sapiens with 4 samples.

Results

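The peaks described here come from the combination of SHP1705 and MG132 set beside SHP1705 alone, and lie outside every annotated gene. Members were chosen by position and by the peak calls of these 2 lists. A peak on chromosomes 1 to 22 or X counted as intergenic when it overlapped no RefSeq gene of any biotype. A shared pair was an intergenic peak of each list with mutually nearest summits at most 250 bp apart. A one-list peak was at least as long as the combination library's fragment size, which was that list's minimum peak length, had its summit more than 2 bp from its middle and overlapped no peak of the other list. The rule gave 4143 shared pairs, 10767 combination-only peaks and 7633 SHP1705-only peaks, out of 143014 peaks in the 2 lists and 260678 in all 4. By summit, 10 combination peaks and 9 SHP1705 peaks belonged to a pair and were one-list peaks as well, since their summits were close but the peaks did not overlap.

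The study used STARR-seq in MDA-MB-231, an established human line of triple-negative, mesenchymal breast cancer, and its plasmid library carried fragments of the same line's genomic DNA. Cells received DMSO as the control, SHP1705 at 10 µM, MG132 at 100 nM, or SHP1705 at 10 µM with MG132 at 100 nM, and each treatment gave 1 library. The drugs were in the medium before the plasmids went in, 1 transfection mix served every treatment, and polyadenylated RNA was taken at 8 h. No spread between replicates exists, so every comparison below is between libraries and carries no p-value, and intervals cover counting error only. Setting the combination beside SHP1705 alone asks which fragments differ in reporter RNA when a proteasome inhibitor is added to the CRY2 stabilizer. No list of the input plasmids was used here, so reporter RNA per plasmid and the number of plasmids carrying a fragment cannot be told apart.

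In STARR-seq a genomic fragment sits inside the transcribed part of a reporter plasmid, so a fragment with enhancer activity raises the amount of its own sequence in the reporter RNA, wherever it lies in the genome. CRY1 and CRY2 are clock repressors that hold back the CLOCK and BMAL1 activator pair at E-box elements, and their removal by ubiquitin ligases and the proteasome lets the next cycle start. The submitters call SHP1705 a CRY stabilizer, and MG132 blocks the proteasome. Intergenic DNA holds distal enhancers and also much of the repeated sequence of the genome, including the alpha satellite arrays at centromeres, where short reads are hard to place.

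Few members reached the stretch just upstream of a gene start, where letters could be read from RefSeq's promoter table for GRCh38.p14. Shared pairs overlapped it at 3 genes. They were GZMA, which encodes a protease of cytotoxic lymphocytes (chr5:55102396-55102645, plus strand), SMARCE1, which encodes a subunit of the SWI/SNF chromatin remodeler (chr17:40647819-40648068, minus strand), and the noncoding LOC124902208 (chr9:91192772-91193021, plus strand). The other sequences, chosen after values were seen, are those of one-list members with an E-box, the element that CLOCK and BMAL1 bind. They were SAYSD1 (chr6:39115187-39115436, minus strand) in the combination, and CCDC9 (chr19:47256275-47256524, plus strand) and the noncoding LOC130932201 (chr1:39799191-39799440, plus strand) in SHP1705. Each sequence below is the 250 bases before the gene start, 5′ to 3′ on the gene's strand, and capitals mark a match to a searched motif.
GZMA: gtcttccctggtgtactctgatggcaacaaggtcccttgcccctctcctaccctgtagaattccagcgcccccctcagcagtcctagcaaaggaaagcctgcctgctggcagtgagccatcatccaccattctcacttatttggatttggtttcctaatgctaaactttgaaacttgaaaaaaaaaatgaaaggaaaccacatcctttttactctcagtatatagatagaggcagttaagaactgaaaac
SMARCE1: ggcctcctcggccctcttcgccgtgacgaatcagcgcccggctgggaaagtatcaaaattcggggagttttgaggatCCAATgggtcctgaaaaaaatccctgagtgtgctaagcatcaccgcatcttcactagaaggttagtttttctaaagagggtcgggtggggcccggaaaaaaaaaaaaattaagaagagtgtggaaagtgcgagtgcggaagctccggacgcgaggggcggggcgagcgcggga
LOC124902208: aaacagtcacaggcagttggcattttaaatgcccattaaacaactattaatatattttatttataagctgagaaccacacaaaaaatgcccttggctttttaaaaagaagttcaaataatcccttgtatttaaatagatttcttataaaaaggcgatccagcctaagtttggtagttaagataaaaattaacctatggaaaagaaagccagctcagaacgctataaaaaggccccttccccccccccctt
SAYSD1: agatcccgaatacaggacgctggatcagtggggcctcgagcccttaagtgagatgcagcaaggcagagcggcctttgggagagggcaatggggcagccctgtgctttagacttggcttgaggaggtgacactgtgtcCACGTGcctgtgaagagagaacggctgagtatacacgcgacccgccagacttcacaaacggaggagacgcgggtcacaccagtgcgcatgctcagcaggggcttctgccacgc
CCDC9: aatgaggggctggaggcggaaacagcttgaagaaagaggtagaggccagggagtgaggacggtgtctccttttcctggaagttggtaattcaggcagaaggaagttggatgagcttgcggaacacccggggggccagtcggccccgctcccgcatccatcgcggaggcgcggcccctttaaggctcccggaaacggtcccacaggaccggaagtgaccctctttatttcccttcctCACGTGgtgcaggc
LOC130932201: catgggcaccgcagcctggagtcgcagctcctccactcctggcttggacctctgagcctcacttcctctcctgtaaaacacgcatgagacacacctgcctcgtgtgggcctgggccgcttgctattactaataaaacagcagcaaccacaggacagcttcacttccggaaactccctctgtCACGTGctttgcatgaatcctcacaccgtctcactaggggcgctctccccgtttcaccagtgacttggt

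Of the 6 motifs searched on both strands, the 3 shared sequences held 1 match, a CCAAT in SMARCE1. The others searched were the E-box CACGTG, the cyclic AMP element TGACGTCA, the AP-1 element TGANTCA, the D-box TTATGTAA and the heat shock pair GAANNTTC, and no match overlapped another motif among the sequences printed. Among all 34961 upstream windows on these chromosomes, 6.35% held CACGTG, 1.65% TGACGTCA, 6.54% TGANTCA, 0.838% TTATGTAA, 32.0% CCAAT and 5.80% GAANNTTC. CACGTG occurred in 1 of the 23 windows under combination-only members and in 2 of the 36 under SHP1705-only members. The CACGTG of SAYSD1, at base 138 of its window, lay under its peak (chr6:39115286-39115717), whose height was 5.72 FPM, the number of fragments at the summit per 1000000 fragments of the library. Those of CCDC9, at base 237, and LOC130932201, at base 182, lay outside or across the edge of their peaks, of 0.837 and 0.972 FPM. A match is a run of letters and not a bound site.

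The SHP1705 library as a whole stood apart from the other 3. It held 118324303 fragments, where DMSO had 29717604, MG132 27289266 and the combination 28331486, and so 4.18 times the combination (2.06 on the log2 scale). The median intergenic peak reached 7.17 FPM in the combination, 8.11 in DMSO and 5.64 in MG132, but 0.625 in SHP1705, so that the combination's median was 11.5 times that of SHP1705. The lowest called peak was 0.237 FPM in SHP1705 and between 0.424 and 0.440 in the other 3. Intergenic peaks made up 31.4% of the SHP1705 list (95% Wilson interval 31.1 to 31.7) and 49.1% of the combination's (48.7 to 49.6). In the interval from MTAP to CDKN2B (chr9:21802636-22009313), which holds the cell cycle inhibitor CDKN2A and is known to be deleted in MDA-MB-231, SHP1705 had 11 peaks and each other list 2.

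Shared intergenic peaks were taller in the combination almost throughout. Of the 4143 pairs, 4016 (96.9%, 96.4 to 97.4) were at least 2-fold higher in the combination in FPM, 14 (0.338%) at least 2-fold lower, and 113 in between. Over all 6798 pairs of these lists, inside and outside genes, 72.9% were at least 2-fold higher and 22.9% at least 2-fold lower. The median height was 11.8 FPM in the combination and 1.17 in SHP1705, and the median log2 ratio was 3.30 (3.27 to 3.33), a 9.86-fold difference. The pairs were chosen from these same peak calls, so the heights are a description. They depend on the scaling: with raw pileups 61.0% were at least 2-fold higher and 3.23% lower, and with ratios centred on the median of all shared pairs, which is 2.92 on the log2 scale, 23.6% were higher and 9.08% lower.

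Pairs inside genes did not show the same split. The 2651 pairs with both peaks inside genes had a median log2 ratio of -4.48, with 35.5% at least 2-fold higher in the combination and 58.1% at least 2-fold lower. Their median SHP1705 height was 22.3 FPM, against 1.17 for the intergenic pairs, while the combination's medians were 3.25 and 11.8. The intergenic pairs were therefore lower in SHP1705 than in the combination, and lower than SHP1705's own shared peaks inside genes. They were not low for the SHP1705 list as a whole, whose medians were 0.904 FPM inside genes and 0.625 outside. The 2 kinds of pair were not tested against each other, as 1 library stood on each side.

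**Figure D1:**
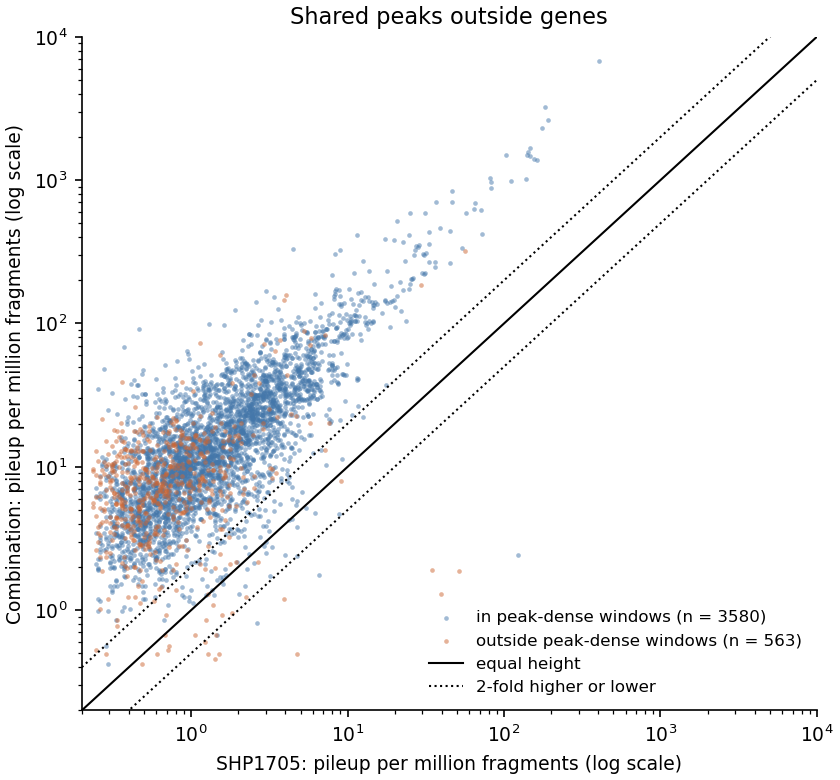
Height of each of the 4143 shared intergenic pairs, in FPM on log axes, with SHP1705 across and the combination up. Points in 1 Mb windows with 5 or more shared pairs are blue and the other 563 are orange, and nearly all points lie above the solid line of equal height and its dotted 2-fold line.

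**Figure D2:**
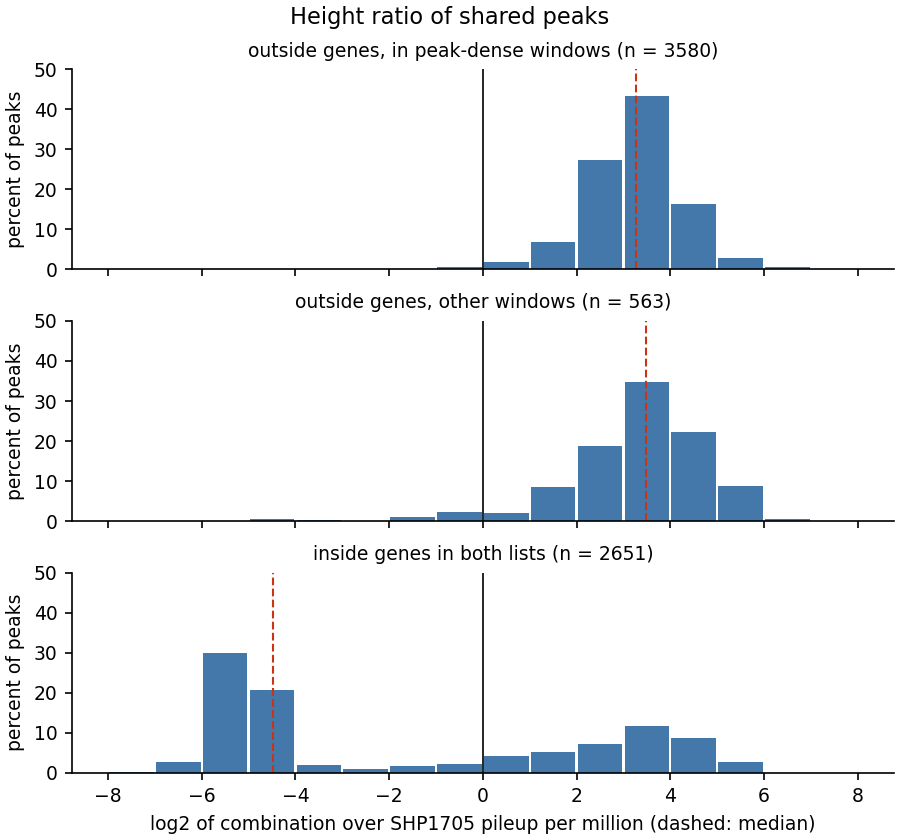
Share of shared pairs in each 1-unit bin of the log2 ratio of combination over SHP1705 height, for intergenic pairs in peak-dense windows (n = 3580), other intergenic pairs (n = 563) and pairs inside genes (n = 2651). The dashed medians lie at 3.28, 3.49 and -4.48, and only the pairs inside genes have a large group below 0.

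Most shared pairs were crowded into a few stretches of the genome. Peak-dense windows, meaning 1 Mb windows with at least 5 shared intergenic pairs, numbered 84, lay on all 23 chromosomes and held 3580 pairs (86.4%). The 10 fullest held 1278 pairs (30.9%), and 50 of the 84 held no annotated gene. The windows were defined by these same pairs, so a high share of pairs inside them follows in part from the definition. Of all intergenic peaks, 18691 of 28095 in the combination and 18239 of 26960 in SHP1705 lay outside the dense windows. On chromosome 7 the 4 dense windows covered chr7:58000001-62000000 and held 392 pairs. On chromosome 5 the 4 windows of chr5:46000001-50000000 held 344, and on chromosome 19 the 4 windows of chr19:24000001-28000000 held 325. These stretches span centromeres in hg38. The fullest single window, chr7:59000001-60000000, held 151 pairs with a median height of 19.2 FPM in the combination and 1.67 in SHP1705.

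The median height ratio favoured the combination in each of the 84 dense windows. It was above 1 on the log2 scale in 83 of them, and the medians ran from 0.518 to 3.89. Over chromosome 7's dense windows they ran from 3.31 to 3.51, and over chromosome 5's from 3.12 to 3.38. Over all intergenic peaks the combination's median height was 3.52 above that of SHP1705 on the log2 scale. A ratio in favour of the combination was thus not particular to these windows. Peaks in dense windows were tall in both lists, with medians of 13.0 FPM in the combination and 1.31 in SHP1705. No filter on repeated sequence was run, and the part of repeats in these heights was not tested.

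The tallest shared peaks lay on chromosomes 1 and 17, far from protein-coding genes. The tallest of all, at chr1:125179563-125180644, reached 6752 FPM in the combination, 407 in SHP1705, 7606 in DMSO and 6386 in MG132. A neighbour at chr1:125182416-125182952 reached 2306, 175, 2128 and 2593 in the same order. The nearest protein-coding gene in RefSeq, LINC02798, was 3717 and 3719 kb away. A further 4 peaks of the 8 tallest by the lower of the 2 heights clustered at chr1:143214248-143263840, with the histone gene H3-7 as the nearest protein-coding gene. The highest of those in SHP1705, at chr1:143262888-143263840, stood at 2614 in the combination, 190 in SHP1705, 3352 in DMSO and 2506 in MG132. The last of the 8 were a pair on chromosome 17 near WSB1, which encodes an adapter of a ubiquitin ligase. The peak at chr17:26882140-26882714 reached 1379, 161, 1701 and 1248, in the same order as above. In each of these peaks SHP1705 was the lowest library by several fold, and the other 3 lay close together.

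The largest ratios came from pairs that were near the floor in SHP1705. At chr10:41265308-41265691, with ZNF33B as the nearest protein-coding gene, the combination reached 91.4 FPM and SHP1705 0.465, a log2 ratio of 7.62, and DMSO and MG132 reached 100 and 148. At chr20:28534474-28534891, nearest to LOC124904970, the values were 69.0 in the combination, 0.372 in SHP1705, 5.11 in DMSO and 58.9 in MG132. Another, at chr9:43695587-43696024, stood at 48.2 and 0.279 and had no peak in DMSO or MG132. The members of this group thus differed in whether the untreated and MG132 libraries shared the tall peak. Others of the 8 lay near ZNF37A, SPIN4, the kinase gene ROCK1, the olfactory receptor OR11H12 and ZNF337. Of these, only the SPIN4 pair (chrX:62511092-62511923) lay outside the dense windows, at 39.1 FPM in the combination, 0.363 in SHP1705, 0.538 in DMSO and 2.46 in MG132. That peak was thus tall in the combination alone.

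A small set of pairs went the other way. The lowest ratio, -5.65 on the log2 scale, was at chr21:8988194-8988637, 0.651 kb from the microRNA gene MIR10396A, with 2.44 FPM in the combination, 122 in SHP1705, 3.16 in DMSO and 2.82 in MG132. Next came a peak 69.6 kb from LRPPRC, which encodes a mitochondrial RNA-binding protein (chr2:44065674-44066070), at 1.31, 39.7, 2.09 and 2.09 in the same order. The pair near ZNF783 (chr7:149321598-149322026) stood at 1.87, 51.8, 1.88 and 4.98. At these 3 sites SHP1705 was the tall library and the other 3 were low, the reverse of the usual pattern. The pair 37.3 kb from RPE65, the retinoid isomerase gene (chr1:68391403-68391819), had 1.91 in the combination, 34.6 in SHP1705, 2.83 in DMSO and 2.97 in MG132. Its SHP1705 peak was 2786 bp long, and a SHP1705-only peak of 14.1 FPM lay beside it at chr1:68387358-68388735. The pair near SNAI2, the gene of the mesenchymal transcription factor Slug (chr8:48966241-48966660), stood at 0.494 in the combination and 4.77 in SHP1705, with no DMSO or MG132 peak. The last 3 of the 8 lowest, near KCNJ18, FKBP1C and ZXDA, had ratios between -1.89 and -1.70. Of the 14 pairs at least 2-fold lower in the combination, 10 lay outside the dense windows.

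Away from the dense windows the picture was thinner but the direction was the same. There 563 pairs remained, of which 528 (93.8%, 91.5 to 95.5) were at least 2-fold higher in the combination and 10 (1.78%) at least 2-fold lower. The median log2 ratio was 3.49 (3.38 to 3.59), with median heights of 7.59 FPM in the combination and 0.634 in SHP1705. The pairs lay a median of 16.2 kb from the nearest gene end, against 989 kb in the dense windows. The tallest, chosen after values were seen, lay 32.2 kb from NID1, which encodes the basement membrane protein nidogen (chr1:236097068-236097761), at 319 in the combination, 56.4 in SHP1705, 626 in DMSO and 399 in MG132. A pair near BRD1, which encodes a chromatin reader (chr22:49383795-49384596), stood at 70.5, 5.78 and 192 in the combination, SHP1705 and DMSO, with no MG132 peak. A pair 1.80 kb from BCLAF3 (chrX:19992490-19992980) had 21.5 and 0.270 and no peak in DMSO or MG132. Agreement with the untreated library thus differed from peak to peak in this set.

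Outside the dense windows, many shared pairs had the very same start and end in both lists. This held for 219 of the 563 pairs (38.9%, 35.0 to 43.0), all with 0 bp of difference at both ends, and 152 of the 219 had the combination summit within 2 bp of the peak middle. Their median width was 423 bp and their median log2 ratio 3.61, with the combination higher in 218. In DMSO 17 of them had a peak and in MG132 19, while 186 had one in neither. The other 344 pairs had a DMSO peak in 93 cases and an MG132 peak in 108. The tallest of these pairs by the lower height, named after values were seen, lay near CPLX1, which encodes complexin (chr4:834090-834555), at 18.3 FPM in the combination and 2.90 in SHP1705. The next was 6.75 kb from ALB, the albumin gene (chr4:73427981-73428480), at 14.6 and 2.10, followed by one near GEMIN8, whose product belongs to the SMN complex (chrX:13967585-13968080), at 19.2 and 1.89. None of these 3 had a DMSO or MG132 peak. Identical ends were not limited to this pair of lists: over the other 5 pairings of the 4 lists they made up 29.6% to 33.6% of shared intergenic pairs outside the same windows. The source of the identical ends was not tested, and the fragments behind such pairs need not be independent molecules. Without the pairs of the same ends, an alternative added after the data were seen, the median log2 ratio over all windows was 3.28.

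The DMSO and MG132 lists, which the rule did not use, held many of the shared pairs. A DMSO summit lay within 250 bp of 2434 pairs (58.7%, 57.2 to 60.2) and an MG132 summit of 2659 (64.2%, 62.7 to 65.6), and 1072 pairs (25.9%) had neither. In the dense windows the shares were 64.9% for DMSO and 70.7% for MG132, and outside them 19.5% (16.47 to 23.02) and 22.6% (19.3 to 26.2). Of all intergenic combination peaks outside them, 3.54% paired with an intergenic DMSO peak and 4.82% with an intergenic MG132 peak. For SHP1705 these shares were 2.67% and 3.73%. They require an intergenic partner, which the shares of pairs do not. No such share was computed for dense windows. All 4 lists held 2022 pairs, 1946 of them in dense windows. There the median heights were 18.8 FPM in DMSO, 19.6 in MG132, 17.5 in the combination and 1.81 in SHP1705, and SHP1705 was the lowest of the 4 in 1935 (99.4%). For the 76 outside, the medians were 4.07, 5.79, 6.46 and 0.752 in the same order, and SHP1705 was lowest in 66 (86.8%).

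The combination was close to the 2 libraries without SHP1705 at these peaks. Over the 2022 pairs its median log2 ratio was -0.0046 to DMSO (-0.032 to 0.025) and -0.090 to MG132 (-0.13 to -0.054), and it lay within 2-fold of DMSO in 1555 (76.9%) and of MG132 in 1639 (81.1%). SHP1705 stood at -3.30 to DMSO and -3.42 to MG132. The ratios to a given library share that library, and each is a description of single libraries. Depth and treatment cannot be told apart for SHP1705, since its 1 library was also the deepest.

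**Figure D3:**
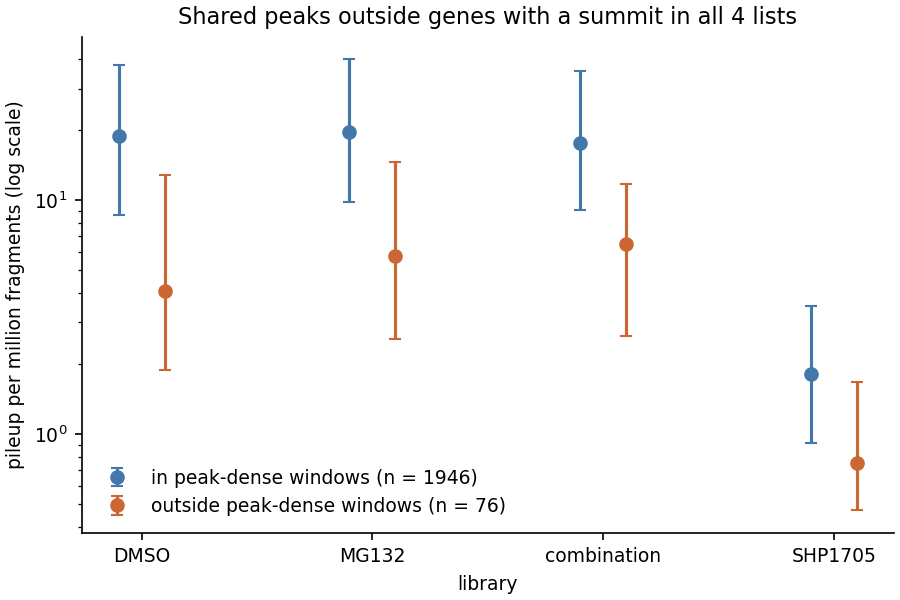
Median height (points) and quartiles (bars) in FPM on a log axis, in each of the 4 libraries, for shared intergenic pairs with a summit in all 4 lists, in peak-dense windows (n = 1946) and outside them (n = 76). DMSO, MG132 and the combination lie between 17.5 and 19.6 in dense windows and SHP1705 at 1.81.

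One-list peaks were taller in the combination than in SHP1705, as were the intergenic peaks of the 2 lists at large. Over all intergenic peaks the medians were 7.17 FPM in the combination and 0.625 in SHP1705. The combination-only peaks were 10767 of the list's 28095 intergenic peaks (38.3%), and the SHP1705-only peaks 7633 of 26960 (28.3%). Of all peaks of each list, inside and outside genes, 34.6% met the one-list rule in the combination and 53.8% in SHP1705. The median height of the combination-only peaks was 5.75 FPM (quartiles 2.68 and 10.2) and that of the SHP1705-only peaks 0.710 (0.456 and 1.18), where the lowest height called in the combination was 0.424. Most intergenic peaks without an overlap were removed by the rule on the summit: 12208 of 22975 in the combination and 11770 of 21772 in SHP1705 had it within 2 bp of the middle. The rule on length removed a further 2368 SHP1705 peaks that were in no shared pair and 0 combination peaks, and 987 and 1055 peaks overlapped the other list without forming a pair. Dense windows held 4781 (44.4%) of the combination-only peaks and 2785 (36.5%) of the SHP1705-only peaks. With no rule on the summit they held 5013 of 22975 combination-only and 2946 of 16720 SHP1705-only peaks, so these shares depend on that rule. Of all intergenic peaks, 18691 of 28095 in the combination and 18239 of 26960 in SHP1705 lay outside the dense windows.

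Among combination-only peaks the tallest all lay in dense windows. The first, nearest to ALG10B, which encodes a glycosyltransferase (chr12:37247103-37247513), reached 165 FPM and had no DMSO or MG132 peak. The second, nearest to ZNF716 (chr7:58711242-58711648), reached 129, with 104 in DMSO and no peak in MG132. Of the 8 tallest, 2 had a DMSO peak and 3 an MG132 peak, so their presence in those lists did not follow 1 pattern. The peaks with the highest fold over their local background, which marks isolated peaks, lay outside those windows near POTEC, FAT1, ARPP21, IRX1 and CYLC2. FAT1 encodes an atypical cadherin, and its peak 95.2 kb away (chr4:186821472-186821945) reached 47.8 FPM with no peak in the other 3 lists. The peak nearest to IRX1, a homeobox gene (chr5:3202044-3202447), reached 45.7, again in the combination alone. The ARPP21 peak (chr3:35455378-35455877) reached 46.8, against 3.80 in DMSO and 1.28 in MG132. Closest to a gene among the tall peaks outside the windows was one 0.572 kb from ESYT2, which encodes a tether between the endoplasmic reticulum and the plasma membrane (chr7:158730284-158730759), at 56.3 FPM with no peak elsewhere, named after values were seen.

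The SHP1705-only peaks had 3 tall members and then dropped quickly. The tallest, at chr2:131626685-131627342, lay 0.685 kb from POTEKP, a pseudogene of the POTE family, and 93.5 kb from CCDC74A. It reached 125 FPM in SHP1705, 4.44 in DMSO and 4.10 in MG132, with no overlapping combination peak. The second, nearest to LOC124903442 in a dense window (chr15:19780355-19780861), reached 49.5 in SHP1705 but 354 in DMSO and 154 in MG132. The third, 10.1 kb from TNPO3, a nuclear import receptor gene (chr7:129066044-129066561), reached 47.1 in SHP1705 with no peak in any other list. The remaining 5 of the 8 tallest were between 14.1 and 15.6 FPM, near SLC35F3, EMB, TAF13, TMX3 and RPE65, and none had a DMSO or MG132 peak. TAF13 encodes a subunit of the general transcription factor TFIID, and its peak (chr1:109062554-109063878) lay 0.606 kb away. By fold over local background the leaders were near MYT1L, CCDC74A, GUCY2D, LOC124909494 and TEX15. The MYT1L peak, near a neuronal transcription factor gene (chr2:2461888-2462285), reached 8.40 FPM, and that 4.11 kb from GUCY2D, the retinal guanylate cyclase gene (chr17:8024048-8024566), reached 7.04.

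Presence in the untreated and MG132 lists was similar for the 2 one-list sets within the dense windows. There 47.1% of combination-only peaks (45.7 to 48.6) and 48.7% of SHP1705-only peaks (46.9 to 50.6) were overlapped by a DMSO or an MG132 peak. Outside them the shares were 12.9% (12.1 to 13.8) and 9.98% (9.17 to 10.9). With no rule on the summit, an alternative added after the data were seen for these windows, they were 8.35% and 7.25% outside and 45.7% and 46.8% inside, and over all windows they went from 28.1% and 24.1% to 16.5% and 14.2%. One-list peaks inside genes had 10.9% (10.3 to 11.6) in the combination and 8.44% (8.17 to 8.73) in SHP1705, so that low shares away from the dense windows were not confined to intergenic peaks. An MG132 peak without a DMSO peak occurred at 6.30% (5.71 to 6.94) of the combination-only peaks outside dense windows and at 5.75% (5.13 to 6.45) of the SHP1705-only peaks. The reverse, DMSO without MG132, occurred at 4.64% and 3.42%. Where both other lists had a peak, 39 SHP1705-only peaks outside the windows had a median of 0.871 FPM in SHP1705, 9.09 in DMSO and 7.44 in MG132, and the 120 combination-only peaks had 2.67, 3.77 and 3.94 in the combination, DMSO and MG132.

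**Figure D4:**
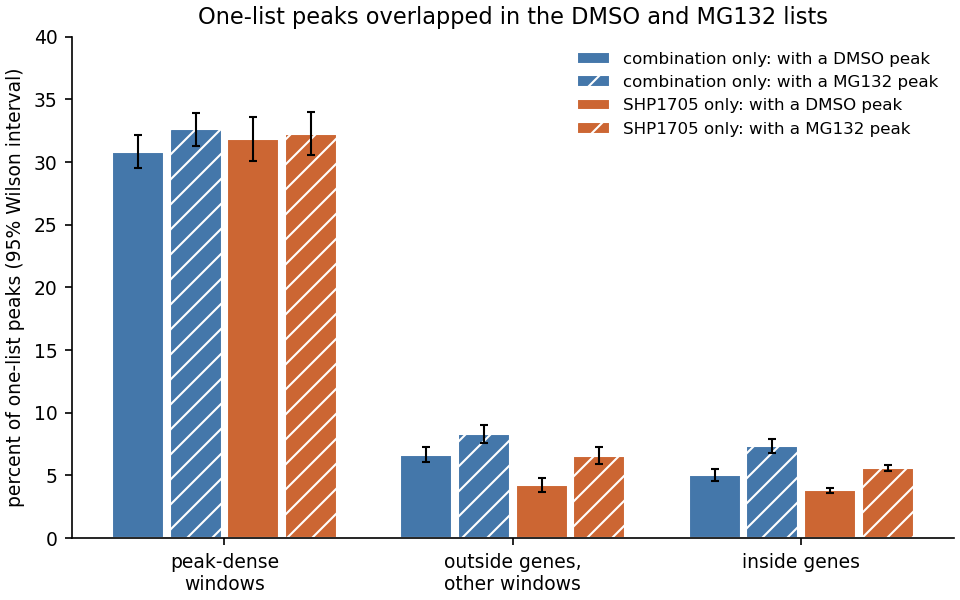
Percent of one-list peaks overlapped by a DMSO peak (plain bars) or an MG132 peak (hatched bars), with 95% Wilson intervals that cover counting error only, for combination-only (blue) and SHP1705-only (orange) peaks. In dense windows all 4 bars lie between 30.8% and 32.6%, and outside them and inside genes between 3.81% and 8.30%.

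The SHP1705-only peaks lay closer to genes than the combination-only peaks under the rule on the summit, and most of that difference was absent without it. Outside the dense windows their median distance to the nearest gene end, for genes of any biotype, was 8.73 kb, against 15.3 kb for the combination-only peaks. Within 10 kb of a gene end lay 53.5% of the SHP1705-only peaks (52.1 to 54.9) and 40.1% of the combination-only peaks (38.9 to 41.4). For all intergenic peaks of the 2 lists outside those windows the shares were 37.4% in SHP1705 and 37.0% in the combination. With no rule on the summit, also added after the data were seen, 37.6% (36.8 to 38.4) of the SHP1705-only and 37.0% (36.3 to 37.7) of the combination-only peaks lay within 10 kb, with medians of 16.2 and 16.7 kb. Over all windows the medians were 29.3 and 79.3 kb with the rule and 23.7 and 27.3 kb without it. With the rule, the shares within 1 kb were 7.43% (6.72 to 8.20) and 5.48% (4.93 to 6.09). The intervals at both distances did not overlap under the rule, but they cover counting error only and each set comes from 1 library. Under the rule, the SHP1705-only peaks also lay near each other slightly more often, with another such peak within 5 kb at 13.8% (12.9 to 14.8), against 11.5% (10.8 to 12.4). These shares were not computed without the rule on the summit, nor over all intergenic peaks of the lists.

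**Figure D5:**
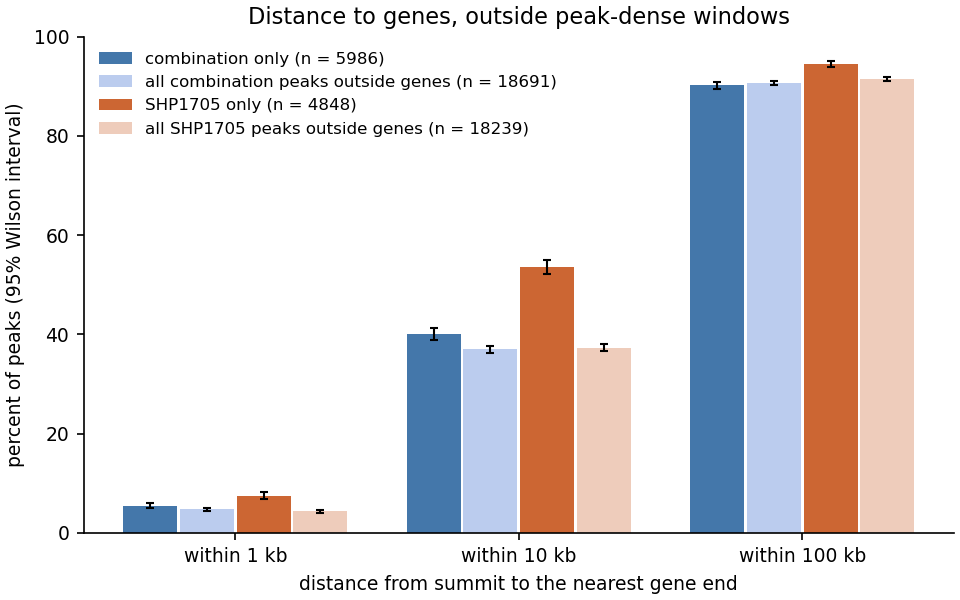
Percent of peaks outside dense windows whose summit lies within 1, 10 or 100 kb of a gene end, with 95% Wilson intervals, for the one-list sets (dark bars) and for all intergenic peaks of the same list (pale bars). At 10 kb the SHP1705-only bar stands at 53.5%, the combination-only bar at 40.1% and the pale bars at 37.0% and 37.4%.

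Some clock genes had members nearby. Within 10 kb of either end, 0.566% of all 19970 protein-coding genes had a shared pair, 7.37% a combination-only peak and 8.58% a SHP1705-only peak. Of 21 genes of the clock core loop 0 had a shared pair, 3 (14.3%) a combination-only peak and 4 (19.05%) a SHP1705-only peak. The combination-only peaks lay 9.02 kb from the repressor gene PER2 (chr2:238234998-238235445, 9.07 FPM), 1.98 kb from PER3 (chr1:7782205-7782572, 5.72) and 4.48 kb from the output factor TEF (chr22:41403658-41404038, 9.18). The SHP1705-only peaks were lower, at 1.13 FPM beside the repressor CRY1 (chr12:106990109-106990580, 1.18 kb), 0.532 by the nuclear receptor RORA (chr15:61238797-61239210), 0.355 by the repressor BHLHE40 (chr3:4994669-4995053) and 0.254 by TEF on its other side (chr22:41364974-41365362). None of these 7 peaks had a DMSO or MG132 counterpart. The SHP1705-only peaks by BHLHE40 and TEF were below the lowest heights called in the combination (0.424 FPM), DMSO (0.4375) and MG132 (0.4397). For them a counterpart of equal height could not have been called in any of those lists, the combination included. The counts for this gene list and those below use the rule on the summit and were not computed without it. CRY2, the named target of SHP1705, had no member within 10 kb.

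Near genes whose products modify or degrade clock proteins, SHP1705-only peaks under the rule on the summit were the most frequent kind of member. The counts were not computed without that rule, under which SHP1705-only peaks lay closer to genes. Of 17 such genes 1 had a shared pair, 1 a combination-only peak and 6 (35.3%) a SHP1705-only peak. Over all protein-coding genes the shares were 0.566%, 7.37% and 8.58%. CSNK1E, which encodes the kinase that marks PER proteins for degradation, had all 3 kinds. Its shared pair (chr22:38280490-38280936) stood at 12.0 FPM in the combination and 0.389 in SHP1705, its combination-only peak 0.383 kb from the gene (chr22:38290092-38290493) at 7.52, and its SHP1705-only peak (chr22:38281509-38282480) at 0.482. Other SHP1705-only peaks lay near BTRC (chr10:101566400-101566864, 1.504 FPM), whose product directs a ubiquitin ligase to PER proteins, and near the ligase scaffold gene CUL1 (chr7:148802261-148802726, 1.30). PRKAA1, a subunit of the AMP-activated kinase (chr5:40798572-40799082), had one at 0.338 and the deubiquitinase gene USP2 (chr11:119349055-119349539) one at 0.270. The SHP1705-only peaks named here were absent from the DMSO and MG132 lists, and counts of this size were not tested. Those near PRKAA1 and USP2 were below the lowest heights called in the combination (0.424 FPM), DMSO (0.4375) and MG132 (0.4397). A peak of their height could not have been called in those lists, so at that height they could only be SHP1705-only.

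Genes tied to proteasome inhibition were near one-list members about as often as protein-coding genes at large for some lists, and each list is small. Against 7.37% and 8.58% of all protein-coding genes, 2 of 36 proteasome subunit genes (5.56%) had a combination-only peak and 3 (8.33%) a SHP1705-only peak, and 1 had a shared pair. These shares and those of the NRF2 and ATF4 lists are near the background and are no result about those genes. The shared pair lay 2.64 kb from PSMC6, an ATPase subunit gene of the regulatory particle (chr14:52704546-52705014), at 10.8 FPM in the combination and 0.279 in SHP1705. Of 25 heat shock and chaperone genes 5 (20%) had a combination-only peak and 4 (16.0%) a SHP1705-only peak. The combination-only peaks included one 6.65 kb from HSP90AA1, the inducible HSP90 gene, at 6.14 FPM, and one that lay within 10 kb of both HSPA1A and HSPA1B, neighbouring HSP70 genes, at 1.17. The SHP1705-only peaks lay near BAG3, CHORDC1, HSF2 and HSPB1, at 0.363 to 0.989. Of 20 NRF2 genes 1 (5%), PGD, had SHP1705-only peaks and 0 a combination-only one. ATF4 and unfolded protein response genes had 2 of 20 (10.0%) with a combination-only peak and 2 of 20 with a SHP1705-only peak, and ATF3, a stress-induced transcription factor gene, had both, at 6.07 and 0.389 FPM. AP-1 and immediate early genes had 3 and 2 of 23 (13.0% and 8.70%), and the tallest was 2.07 kb from NR4A1, an immediate early nuclear receptor gene, at 15.2 in the combination. Mesenchymal and basal breast genes had 2 and 6 of 24 (8.33% and 25%), the latter including VIM, the vimentin gene, at 0.820 and CD44, a cell adhesion receptor gene, at 0.237. The SHP1705-only peaks near CD44, ITGA6, KRT14, HSPB1, SDF2L1 and ATF3 were below the lowest heights called in the other libraries. Those were 0.424 FPM in the combination, 0.4375 in DMSO and 0.4397 in MG132. At such heights these peaks could only be SHP1705-only. No gene list apart from the proteasome subunits and the clock turnover genes had a shared pair.

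Upstream windows themselves were reached by 3 shared pairs, 21 combination-only peaks (0.195%) and 33 SHP1705-only peaks (0.432%). The shares were not computed over all intergenic peaks of the lists, nor without the rule on the summit. The pair over GZMA (chr5:55102132-55102558) stood at 21.8 FPM in the combination and 0.761 in SHP1705 and covered 163 of the 250 bases printed above. That over SMARCE1 (chr17:40648023-40648513) stood at 9.04 and 3.49 and covered 46 bases, and that over LOC124902208 (chr9:91192401-91192824) at 9.49 and 0.270 and covered 53. None of the 3 had a DMSO or MG132 peak. In each the combination was the taller, as in the shared pairs at large, and the SMARCE1 pair had the smallest ratio of the 3, at 1.37 on the log2 scale.

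Values at the limits of the rule are given without a test. The 3 shared pairs with summits exactly 250 bp apart had log2 ratios of 2.54, 2.14 and 3.21, and of the pairs just outside, 1 bp further apart, those near CCSER2 and PROS1, had 5.99 and 4.01. Of one-list candidates, the 64 SHP1705 peaks exactly at the minimum length had a median of 0.490 FPM and the 38 that were 1 bp shorter, left out, 0.520. The combination had 63 peaks at that length with a median of 5.05 and 0 that were shorter. Peaks with the summit within 2 bp of the middle, left out, had medians of 7.27 in the combination and 0.600 in SHP1705.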

How the data were processed

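STARR-seq peak lists of 4 libraries, 1 per treatment, were analysed. The submitters' processing notes name hg38 and the tools Trimmomatic, Bowtie2 and FastQC, without versions. The authors called peaks in each library with MACS 2.2.6 (q limit 0.01), per the file headers, without a control, with duplicates kept and a background over 10000 bp. The deposited pileup is a signal, the fragment coverage at the summit, unscaled. The deposited −log10 p and −log10 q, and the fold, a ratio of pileup to local background, are the authors' and served only to rank or filter peaks within a list.

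From these, pileups were divided by the header's fragments and multiplied by 1000000 (FPM); fragments ranged from 27289266 to 118324303. Intergenic status used 59094 RefSeq genes of GRCh38.p14, and distances run from summit to gene end. Shares carry Wilson and medians order-statistic 95% intervals. Pairing and counting were tested on simulated data. Python 3.11.15, numpy 2.4.6, pandas 2.3.3, scipy 1.17.1 and matplotlib 3.10.9 were used. The peaks named were the 8 shared pairs highest in the lower height, the 8 highest and 8 lowest ratios, the 8 tallest and the 5 of highest fold in each one-list set, those nearest the 250 bp limit, those under promoter windows, and those within 10 kb of clock genes. Gene lists held 187 entries, of which 186 were matched, and FBXL21P was not. The members and lists were chosen with earlier results of these data known. No genome sequence was used here, so base composition, repeats and motifs under the peaks were not analysed here. A few members that the naming rule covers are not reported here.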

Additional observations from a re-analysis of the deposited data

How the results depend on the processing

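Of 105 alternative values over 17 settings, 52 stayed within their counting interval or 1.5-fold and 53 moved by more. A change of direction was defined only for the median log2 ratio, which stayed above 0 in each of its alternatives. The median log2 ratio of 3.30 became 1.24 with raw pileups, 0.38 when centred on all shared pairs, 3.19 with both lists at equal length, 3.21 when peaks in noncoding genes were kept as intergenic and 3.49 without peak-dense windows. The share at least 2-fold higher became 61.0%, 23.6%, 96.3%, 89.1% and 93.8% in that order. The share at least 2-fold lower became 3.23% with raw pileups, 9.08% when centred, 7.92% with noncoding genes kept and 1.78% without peak-dense windows, which left 563 pairs. SHP1705-only peaks numbered 3582 at a minimum length of 450 bp, 5064 at equal list length, 16720 with no rule on the summit and 12323 with noncoding genes kept. Of the 7633, 6006 were at or above the lowest height called in the combination. Combination-only peaks numbered 5608 at 450 bp and 22975 with no rule on the summit. With no rule on the summit, the share of SHP1705-only peaks within 10 kb of a gene outside dense windows fell from 53.5% to 37.6%, against 40.1% and 37.0% for combination-only peaks. Raw pileups leave the depth difference in the ratio, and the cause of the other shifts was not tested. The planned base composition, repeat and motif alternatives were not run. No paired analysis was possible because each treatment has 1 library and the labels give no replicate numbers. With 1 library per treatment, depth limits SHP1705 least, and no value has a replicate check.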

Other observations

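How often a one-list peak was found in the DMSO or MG132 list rose with its height inside the peak-dense windows, and no steady rise was seen outside them. In dense windows the share with such a peak was 35.8% (33.2 to 38.6) in the lowest height quartile of combination-only peaks and 54.1% (51.3 to 56.9) in the highest. For SHP1705-only peaks there it was 35.8% (32.4 to 39.5) in the lowest height quartile and 58.8% (55.1 to 62.4) in the highest. Outside the windows the lowest height quartile of combination-only peaks, up to 3.71 FPM, had the highest share, 19.9% (17.91 to 21.97), against 11.3% (9.83 to 13.0) in the highest quartile. The quartiles between had 11.0% and 9.64%, so only the lowest stood apart. The SHP1705-only peaks outside had 9.25% (7.74 to 11.0) in the lowest height quartile and 12.0% (10.33 to 13.98) in the highest, and these intervals overlapped.

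In the interval of chromosome 9 from MTAP to CDKN2B, which MDA-MB-231 is known to lack, the combination held 1 intergenic peak, at chr9:21959540-21960084, whose height was 25.6 FPM. DMSO and MG132 had a peak at the same place at 0.707 and 0.696 FPM, and SHP1705 had no intergenic peak there. The source of fragments in this interval was not tested.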
